A study of Mus musculus with 151 samples.

Results

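The genes described here are 10 members of the circadian clock, Nr1d1, Nr1d2, Dbp, Tef, Per1, Per2, Per3, Clock, Cry1 and Cry2. They were chosen by name, as the rows with these symbols among the 55291 genes of a raw count table, and all 10 were found. The table holds full-length Smart-Seq HT libraries of 151 single cells, hand-picked by their red Tdtomato fluorescence from enzymatically dissociated cochleae of C57BL/6 mice. The 55 P14_WT IHCs (inner hair cells, the sound receptors that signal to the auditory nerve) came from postnatal day 14 mice of genotype vGlut3-P2A-iCreER/+; Ai9/+, and the 50 P30_WT IHCs came from postnatal day 30 mice of the same genotype. The 46 P14_iOHCs (induced outer hair cells) came from postnatal day 14 mice of genotype vGlut3-P2A-iCreER/+; Tbx2 flox/-; Ai9/+, in which Tbx2, a transcription factor of the inner hair cell, is to be deleted from cells that express the vGlut3 gene (Slc17a8). All groups therefore carry the tamoxifen-inducible Cre knocked into the Slc17a8 locus and the Ai9 reporter, tamoxifen was given to young pups, and the WT cells are not free of Cre. The iOHCs were also picked by their smaller size, so the cells of the mutant that stayed large are not represented. The number of mice and the hour at which the cochleae were taken are not given in the sources used here. Each library is 1 cell with no animal named, so a group counts as 1 sample, no test between groups was possible, and every SD given is a spread between cells that may share an animal.

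The mammalian clock is a transcriptional loop. CLOCK pairs with BMAL1 (gene Arntl) and binds E-boxes in the Per and Cry genes, whose proteins return to the nucleus and repress the pair, so that RNA of the driven genes rises and falls over the day. The same pair drives Nr1d1 and Nr1d2, which encode the nuclear receptors REV-ERBalpha and REV-ERBbeta and repress Arntl through RORE elements, and it drives Dbp and Tef, whose PAR bZip proteins activate genes through D-boxes. In tissue taken at 1 hour of the day the level of such a gene reads the phase as well as the strength of the loop, and these cannot be told apart here. The cochlea is known to keep a clock of its own.

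The promoters of Nr1d1, Cry2, Per1 and Per3 are shown so that the elements by which the loop acts can be read. They are a choice among the members, and each printed window holds at least 1 motif. Dbp and Per2, past 2-fold between the ages below, are not printed. RefSeq windows (GRCm38.p6, 250 bases before to 50 after each gene start, 5′ to 3′ on the strand of the gene) were held for 9 of the 10 members, Per2 being the exception. Capitals mark the E-box CACGTG, its variant CACGTT, the D-box TTANGTAA or the RORE core AGGTCA, each searched on both strands; a motif on the opposite strand appears as its reverse complement.
Nr1d1, chr11:98775328-98775627, minus strand: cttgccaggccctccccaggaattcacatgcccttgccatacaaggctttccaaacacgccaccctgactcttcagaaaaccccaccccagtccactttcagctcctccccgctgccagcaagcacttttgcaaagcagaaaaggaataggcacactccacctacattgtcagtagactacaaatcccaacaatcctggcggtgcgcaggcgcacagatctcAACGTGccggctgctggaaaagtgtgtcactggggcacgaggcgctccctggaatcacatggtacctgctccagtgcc
Cry2, chr2:92434020-92434319, minus strand: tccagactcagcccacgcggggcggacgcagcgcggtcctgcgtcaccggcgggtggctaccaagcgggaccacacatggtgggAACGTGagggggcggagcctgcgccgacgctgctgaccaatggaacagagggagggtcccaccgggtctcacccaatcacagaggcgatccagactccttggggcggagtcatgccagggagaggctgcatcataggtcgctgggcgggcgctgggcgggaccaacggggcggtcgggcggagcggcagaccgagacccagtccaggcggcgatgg
Per1, chr11:69098699-69098998, plus strand: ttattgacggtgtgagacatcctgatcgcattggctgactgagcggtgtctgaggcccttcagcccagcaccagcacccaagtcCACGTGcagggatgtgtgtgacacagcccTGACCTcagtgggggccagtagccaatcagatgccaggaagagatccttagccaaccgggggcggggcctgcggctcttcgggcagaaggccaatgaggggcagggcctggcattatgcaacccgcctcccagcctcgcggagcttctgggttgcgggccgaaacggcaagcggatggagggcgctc
Per3, chr4:151044616-151044915, minus strand: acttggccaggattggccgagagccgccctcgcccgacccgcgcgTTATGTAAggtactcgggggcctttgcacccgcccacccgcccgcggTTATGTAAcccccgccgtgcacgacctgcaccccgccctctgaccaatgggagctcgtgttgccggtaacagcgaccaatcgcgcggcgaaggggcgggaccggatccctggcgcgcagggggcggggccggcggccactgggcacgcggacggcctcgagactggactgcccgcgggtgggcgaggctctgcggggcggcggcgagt
The Nr1d1 and Cry2 windows each held 1 E-box variant, at -28 and -166 from the gene start. The Per1 window held an E-box at -166 and a RORE core at -137, and the Per3 window held 2 D-boxes at -205 and -158. Of the members not printed, Tef and Cry1 held an E-box, Cry1 also held the variant, Nr1d2 and Clock held a RORE core in 1 of their windows, and Dbp held none of the 4 motifs. Among 32851 windows of all genes the E-box occurred in 7.15%, the variant in 4.68%, the D-box in 2.32% and the RORE core in 16.3%. A match describes letters in a window, and a window without one says nothing of the factor.

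Total counts ranged from 4326416 to 25035444 per cell, with 51 cells below and 100 cells above 11000000, and cells of both sets occurred in every group. Levels are given as counts scaled to a total of 1000000 per cell (CPM), so that 3 counts corresponded to between 0.120 and 0.693 CPM. The 6 inner hair cell markers summed to between 12813 and 28991 CPM in P14_WT IHCs and had a median of 2059 CPM in P14_iOHCs. The 7 outer hair cell markers summed to a median of 872 CPM in P14_WT IHCs and of 45804 CPM in P14_iOHCs. Tbx2 stood at 260.0 ± 127 CPM (SD, n = 55 cells) in P14_WT IHCs and at 69.3 ± 87.4 CPM (SD, n = 46 cells) in P14_iOHCs, and 45 of the 46 iOHCs held a Tbx2 count; the counts are per gene and do not show whether the floxed exon was lost. A set of 4 iOHCs was taken by a cut at 5000 CPM in the inner hair cell marker sum. Their sums were 5126, 9204, 10950 and 21177 CPM, and their Tbx2 lay between 136 and 427 CPM. The highest sum among the other iOHCs was 4443 CPM, not far under the lowest of the 4. Another 15 iOHCs had a score of supporting cell markers (mean log2(CPM + 1)) between 4.80 and 6.97, above the highest P14_WT IHC at 4.45. They held a median of 10323 genes with a count where the remaining 27 iOHCs held 7923. The highest supporting cell score among those 27 was 4.39. The 11 hair cell markers in the table each averaged at least 10 CPM in every group. No cell was in both sets, and the members' values in iOHCs are also given without them.

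All 10 clock genes were detected in each group, at levels that varied widely from cell to cell. Per length (TPM, counts divided by exon length and scaled to the same total), Nr1d1 had the highest mean level of the 10 in every group, at 141 ± 84.1 TPM in P14_WT IHCs (SD, n = 55 cells), 51.4 ± 61.4 TPM in P14_iOHCs (n = 46) and 148 ± 116 TPM in P30_WT IHCs (n = 50). In P14_WT IHCs its mean exceeded that of Nr1d2, next in order at 56.2 TPM, by more than the larger of the SDs. Nr1d2, Dbp at 56.0 TPM and Cry2 at 55.04 TPM followed within their spread, then Per3 at 33.2, Tef at 27.7, Clock at 16.9, Per1 at 13.9 and Cry1 at 8.20 TPM. Per2 was last at 1.52 TPM. No neighbours in the iOHC order differed by more than the larger SD, and the order there ran from Nr1d1 through Nr1d2, Dbp, Cry2, Tef, Per3, Clock, Cry1 and Per1 to Per2 at 0.682 TPM. In P30_WT IHCs Cry2 stood after Nr1d1 at 78.3 TPM, and Clock at 22.4 ± 17.7 TPM (SD, n = 50 cells) stood above Cry1 at 4.50 TPM by more than the SD.

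**Figure D1:**
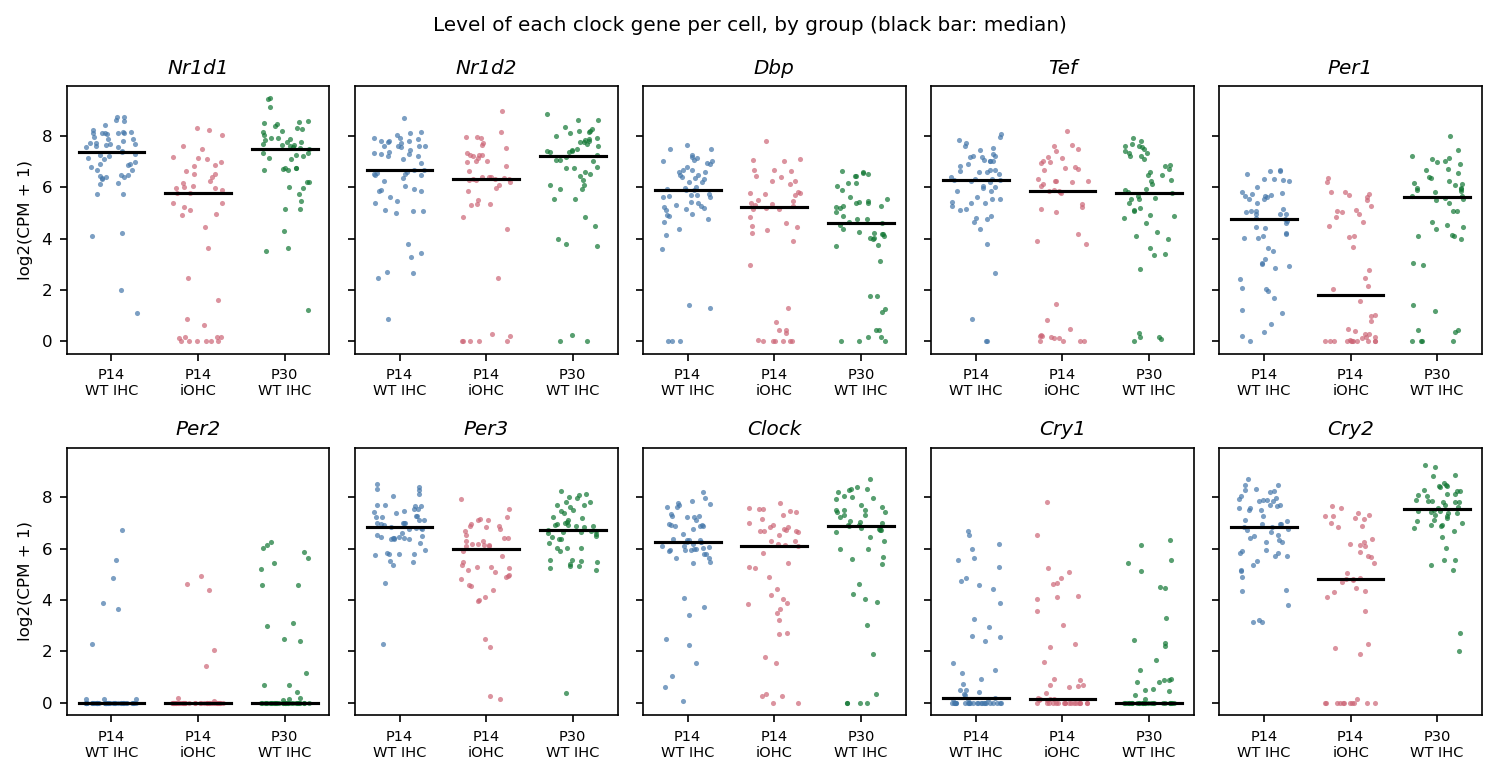
Level of each clock gene in single cells, as log2(CPM + 1) on the vertical axis; each point is 1 cell, in a column for each group, and black bars are medians. The iOHCs sit lower for Nr1d1 (median 53.8 against 165 CPM in P14_WT IHCs) and Cry2 (27.1 against 115 CPM), and most cells sit at 0 for Per2.

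The comparison of P14_iOHCs with P14_WT IHCs asks how the clock genes stood in cells picked as iOHCs from the Tbx2 mutant. Genotype and the picking by size cannot be told apart here from the hour of collection or the animals, which are not given. Nr1d1 and Cry2 were the members past a 2-fold difference of group means, both lower in iOHCs, with mean levels 2.55-fold and 2.64-fold higher in P14_WT IHCs. The PER genes Per1 and Per3 and the output gene Dbp were lower by less, and over all cells Clock, Nr1d2 and Tef by less still. Ratios are log2 of (mean CPM + 1) in iOHCs over the same in P14_WT IHCs, over the genes whose group means average at least 5 CPM; 9 of the 10 members passed this filter and 2 were past 2-fold, both lower. Over all 10528 genes passing, 24.1% were past 2-fold, 9.25% being lower and 14.8% higher. Of the 9 members 8 had a negative ratio, where 46.1% of all genes did, and 1 had a positive ratio, where 53.9% did. No member was past 4-fold, where 9.11% of all genes were. The members' median ratio was -0.59 where that of all genes was 0.06.

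Of the REV-ERB genes, Nr1d1 ran from 1.13 through a median of 165 to 428 CPM in P14_WT IHCs, and from 0 through 53.8 to 315 CPM in P14_iOHCs. The groups overlapped, but 41 of the 46 iOHCs lay under the P14_WT IHC median and 12 lay under every P14_WT IHC. Its mean level was 176 ± 106 CPM (SD, n = 55 cells) against 69.1 ± 78.7 CPM (SD, n = 46 cells), a log2 ratio of -1.34. Pooled over the cells, its level was 182 CPM (exact Poisson 95% interval 181 to 183) against 71.0 CPM (70.3 to 71.6); such intervals, here and below, cover counting error only, since the reads carry no molecular identifiers. Every P14_WT IHC held an Nr1d1 count, as did 40 of the 46 iOHCs (exact binomial 95% interval 73.7% to 95.1%); binomial intervals, here and below, take the cells as independent draws, do not cover differences between animals and compare no conditions. Levels under 10 CPM were found in 14 iOHCs and in 2 P14_WT IHCs. Nr1d2, its paralogue, ran from 0.809 through 99.8 to 407 CPM in P14_WT IHCs and from 0 through 79.5 to 502 CPM in P14_iOHCs. The groups overlapped over nearly their whole range, with 28 of the 46 iOHCs under the P14_WT IHC median. Its ratio of -0.26 turned to 0.06 when libraries were scaled by DESeq2 size factors and to 0.26 among the cells of lower totals. The value of 0.06 was still under the median ratio of all genes with that scaling.

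Of the PAR bZip genes, Dbp ran from 0 through 57.7 to 198 CPM in P14_WT IHCs and from 0 through 36.6 to 223 CPM in P14_iOHCs. The groups overlapped, and 34 of the 46 iOHCs lay under the P14_WT IHC median. Its mean level was 68.3 ± 49.1 CPM (SD, n = 55 cells) against 45.1 ± 47 CPM (SD, n = 46 cells), a log2 ratio of -0.59. Tef ran from 0 through 77.1 to 268 CPM against 0 through 56.3 to 290 CPM in iOHCs, with a log2 ratio of -0.41. In 13 iOHCs Tef was under 10 CPM, yet the highest cell of the comparison for Tef was an iOHC. That cell was 1 of the 4 iOHCs of high inner hair cell markers. Without those 4 the highest iOHC stood at 196 CPM, under the highest P14_WT IHC.

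Of the PER genes, Per3 was the one with a count in every cell of all 3 groups. It ran from 3.88 through 113 to 361 CPM in P14_WT IHCs and from 0.0991 through 63.0 to 245 CPM in P14_iOHCs. Here 36 of the 46 iOHCs lay under the P14_WT IHC median and 6 P14_WT IHCs lay above every iOHC. Its mean level was 132 ± 80.3 CPM (SD, n = 55 cells) against 67.7 ± 52.7 CPM (SD, n = 46 cells), a log2 ratio of -0.95. Per1, the PER gene induced fastest by hormones and activity, ran from 0 through 26.4 to 99.3 CPM in P14_WT IHCs and from 0 through 2.56 to 81.2 CPM in P14_iOHCs. The groups overlapped, 27 of 46 iOHCs and 16 of 55 P14_WT IHCs being under 10 CPM. The log2 ratio of Per1 was -0.91 between means. Per2 had a count in 9 of 55 P14_WT IHCs (exact binomial 95% interval 7.77% to 28.8%) and in 7 of 46 P14_iOHCs (6.34% to 28.9%). It did not pass the filter on low levels.

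Of the CRY genes, which encode the repressors that hold CLOCK and BMAL1 in check, Cry2 ran from 7.81 through 115 to 419.6 CPM in P14_WT IHCs and from 0 through 27.1 to 198 CPM in P14_iOHCs. The 2 groups overlapped less than for any other member by the count of P14_WT IHCs above every iOHC, which was 17, and 15 iOHCs lay under every P14_WT IHC. Its mean level was 142 ± 105 CPM (SD, n = 55 cells) against 53.97 ± 60.6 CPM (SD, n = 46 cells), a log2 ratio of -1.38. Pooled, the level of Cry2 was 140.1 CPM (exact Poisson 95% interval 139 to 141) against 50.3 CPM (49.8 to 50.9). A count of Cry2 was found in every P14_WT IHC and in 35 of the 46 iOHCs (exact binomial 95% interval 61.2% to 87.4%). Cry1 had a median of 0.128 CPM in P14_WT IHCs and 0.124 CPM in P14_iOHCs, with highest cells at 102 and 221 CPM. Its ratio of 0.08 ran from -3.41 among cells of lower totals to 0.74 among cells of higher totals, so no direction is given. Clock, the activator among the members, ran from 0.0471 through 75.5 to 296 CPM against 0 through 68.4 to 219.8 CPM in iOHCs, and 25 of 46 iOHCs lay under the P14_WT IHC median. Its log2 ratio was -0.40.

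The low cells of Nr1d1 and Cry2 were in part the same iOHCs. Nr1d1 had no count in 6 iOHCs, Cry2 in 11 and both in 4. Under 10 CPM were Nr1d1 in 14 iOHCs, Cry2 in 15 and both in 9. Across the 46 iOHCs the Spearman rho of the 2 genes was 0.558.

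The direction of the Cry2 and Nr1d1 ratios was the same under all 15 other summaries, scalings and cell sets tried. Cry2 was past 2-fold in 15 of 15, from -2.51 to -1.01, and Nr1d1 in 14 of 15, from -2.55 to -0.89. Within the cells of lower and of higher totals, Nr1d1 had ratios of -0.89 and -1.49, and Cry2 had -1.01 and -1.54. Those of Per3 were -1.78 and -0.54, those of Per1 -1.37 and -0.78, and those of Dbp -0.52 and -0.61. Tef had -1.05 and -0.12 and Clock -1.02 and -0.16, so that both were past 2-fold, and Nr1d1 was not, among cells of lower totals. In P14_WT IHCs Per3 stood at 199 ± 96.2 CPM in the 16 cells of lower totals and at 104 ± 53.3 CPM in the 39 of higher totals (SD between cells). Across P14_WT IHCs Per3 had a Spearman rho of -0.572 with the total count, 0.623 with the mitochondrial share of counts and 0.485 with the count of Xist, a female-specific RNA (n = 55 cells). These measures went together, since 11 of the 16 cells of lower totals and 13 of the 39 of higher totals held at least 10 Xist counts, and their part in the Per3 difference was not tested.

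Leaving out either marker set of iOHCs, or both, left Nr1d1 and Cry2 lower in iOHCs and moved other members past 2-fold. Without the 4 iOHCs of high inner hair cell markers, 4 of 9 members passing the filter were past 2-fold, where 25.75% of all genes were. Nr1d1 then stood at -1.58, Cry2 at -1.56, Per1 at -1.15 and Per3 at -1.01. In those 4 cells, in rising order of their inner hair cell marker sums, Nr1d1 was 315, 82.0, 258 and 73.6 CPM. In the same order Cry2 was 152, 19.3, 112 and 198 CPM. The Nr1d1 level of 315 CPM was the highest of all iOHCs. The cell that held it had an outer hair cell marker sum of 2041 CPM, within the P14_WT IHC range of 222 to 6062 CPM. Without the 15 iOHCs of high supporting cell markers, 4 members were past 2-fold (all genes, 23.8%), with Nr1d1 at -1.43, Cry2 at -1.30, Per1 at -1.09 and Per3 at -1.05. Dbp was -0.98 without those 15 cells and -0.59 with them. Without both sets, 27 iOHCs remained and 5 members were past 2-fold (all genes, 26.25%), Nr1d1 at -1.87, Per1 at -1.57, Cry2 at -1.55, Per3 at -1.16 and Dbp at -1.01. The other members passing stood at -0.38 for Nr1d2, -0.38 for Tef, -0.40 for Clock and 0.07 for Cry1.

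**Figure D2:**
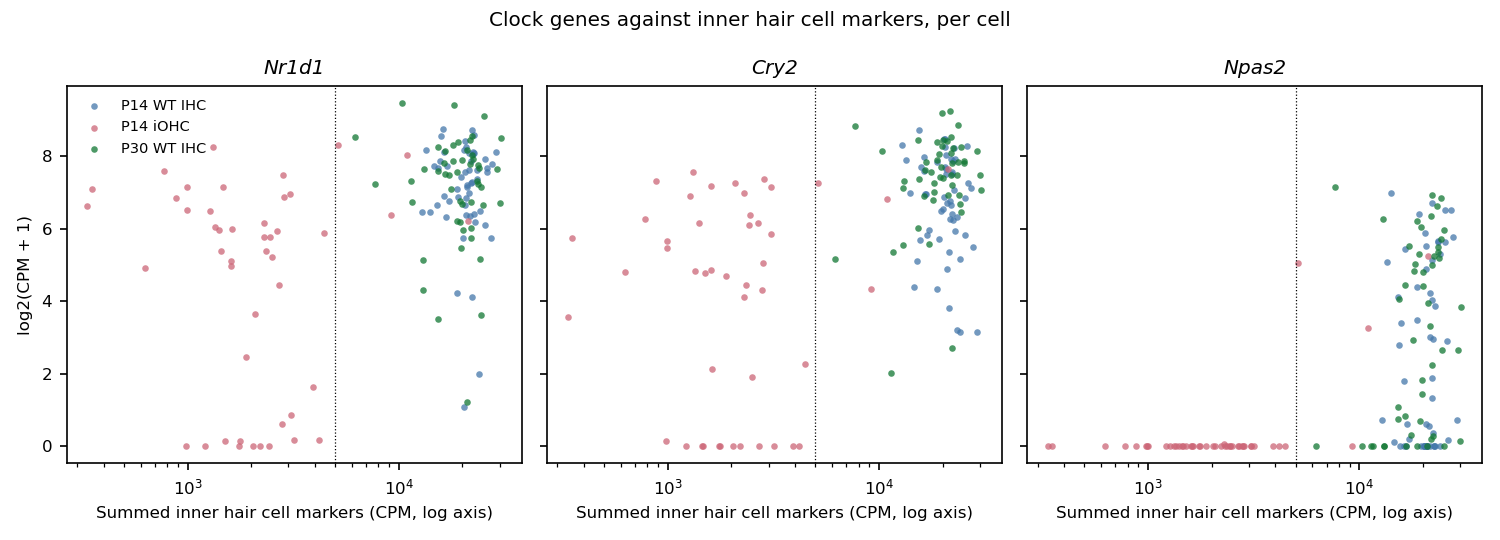
Nr1d1, Cry2 and Npas2 in single cells of the 3 groups, as log2(CPM + 1) on the vertical axis, against the summed CPM of the inner hair cell markers on a log axis; each point is 1 cell, and the dotted line is at 5000 CPM. The 4 iOHCs right of the line hold 3 of the 4 iOHCs with an Npas2 count, and the iOHCs at or near 0 for Nr1d1 or Cry2 lie left of it.

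The other clock genes lay on both sides of 0 in this comparison. Of 11 other core clock genes in the table, 8 passed the filter, 3 being past 2-fold higher in iOHCs (Hlf, Bhlhe40 and Bhlhe41) and 1 lower (Npas2). Over all genes passing, 14.8% were past 2-fold higher and 9.25% lower. Hlf, Bhlhe41 and Npas2 averaged at least 5 CPM in their higher group only, and passed the filter through it. Arntl, the partner of Clock, had a mean level of 50.2 CPM in P14_WT IHCs and 38.7 CPM in P14_iOHCs, a log2 ratio of -0.37. Npas2, a paralogue of Clock that can take its place beside BMAL1, had a count in 39 of 55 P14_WT IHCs and in 4 of 46 iOHCs, with mean levels of 20.2 and 1.68 CPM and a log2 ratio of -2.98. Of the 42 iOHCs outside the 4 with high inner hair cell markers, 1 held an Npas2 count. Rora and Rorb, the receptors that activate at ROREs where REV-ERBs repress, had log2 ratios of -0.78 and -0.81, from mean levels of 673 and 724 CPM in P14_WT IHCs.

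Bhlhe40 and Bhlhe41, which encode repressors that compete for E-boxes, had higher mean levels in iOHCs, at 66.7 against 22.5 CPM and 16.2 against 0.615 CPM. Bhlhe41 had a count in 38 of 46 iOHCs and in 4 of 55 P14_WT IHCs, and its log2 ratio of 3.41 was 3.18 without both marker sets of iOHCs. The ratio of Bhlhe40, 1.53, was 0.89 without the 15 iOHCs of high supporting cell markers and so no longer past 2-fold. Hlf, the PAR bZip relative of Dbp and Tef, had mean levels of 10.7 and 3.31 CPM, a log2 ratio of 1.43 that was 1.33 without both sets. Ciart, which encodes a repressor of CLOCK and BMAL1, had a ratio of 0.87, and of 0.30 without both sets. Nfil3, which represses at D-boxes, had a count in 12 of 46 iOHCs and in 0 of 55 P14_WT IHCs (exact binomial 95% interval up to 6.49% of cells with a count).

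The counts of the lists below stand beside 24.1% of all genes passing that were past 2-fold, 14.8% higher and 9.25% lower in iOHCs. Of 12 kinases, ligases and partners of the clock proteins, 11 passed the filter and 1 was past 2-fold, Prkaa1, a subunit of the energy sensor AMPK, with mean levels of 33.9 CPM in P14_WT IHCs and 8.91 CPM in P14_iOHCs. Of 12 targets and outputs, 7 passed, 1 being higher in iOHCs (Tsc22d3, at 26.6 against 9.53 CPM) and 1 lower (Cys1, at 13.3 against 55.9 CPM). Of 10 glucocorticoid-induced genes, a list that includes Per1, 7 passed and 2 were past 2-fold higher in iOHCs, Dusp1 at 271 against 54.99 CPM and Tsc22d3. Genes of the dissociation response also differed in mean level between the groups: of 25 genes known to respond to tissue dissociation, 21 passed and 15 were past 2-fold higher in iOHCs, with a median log2 ratio of 1.56. The iOHCs were not alike in this. The dissociation score, the mean log2(CPM + 1) of the 25 genes in a cell, had a median of 3.49 in P14_WT IHCs and 3.94 in P14_iOHCs. Its median was 5.92 in the 15 iOHCs of high supporting cell markers, 4.70 in the 4 of high inner hair cell markers and 3.56 in the other 27. Of 18 supporting cell markers 13 passed and 11 were past 2-fold higher, with a median of 2.84. The filter averages the 2 group means, so a gene high in iOHCs alone can pass through them. Supporting cell markers averaging at least 10 CPM numbered 7 in P14_WT IHCs and 12 in P14_iOHCs. Dissociation response genes at that level numbered 16 and 21. The part of either list in the clock gene ratios was not tested.

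**Figure D3:**
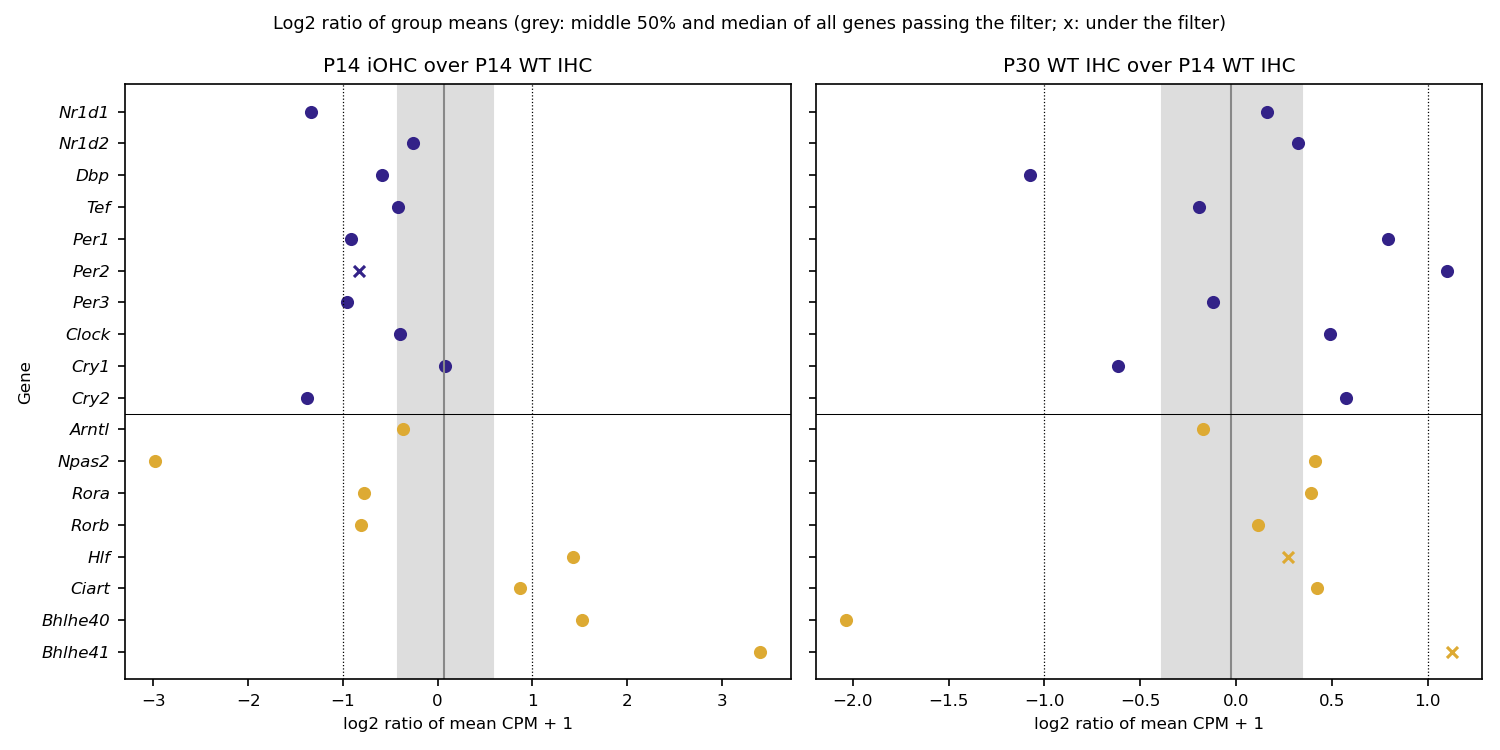
Log2 ratio of (mean CPM + 1) for the 10 clock members (dark) and 8 other clock genes (yellow), in P14_iOHCs over P14_WT IHCs on the left and in P30_WT IHCs over P14_WT IHCs on the right; points are ratios, crosses are genes under the filter, dotted lines mark 2-fold and the grey band holds the middle 50% of all genes passing. Cry2 and Nr1d1 lie left of the 2-fold line in iOHCs, and at day 30 Dbp lies left of it and Per2 right.

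The comparison of P30_WT IHCs with P14_WT IHCs asks how the same genes stood in wild-type cells of 2 ages, and it uses the same P14_WT IHCs as the comparison above. All 10 members passed the filter and 2 were past 2-fold, Dbp lower and Per2 higher at day 30. The filter averages the 2 group means, and Per2 passed it only through day 30, at 9.30 CPM against 3.80 CPM at day 14. Over the 10104 genes passing, 12.0% were past 2-fold, 6.72% being lower and 5.31% higher. No member was past 4-fold, where 1.87% of all genes were. Of the 10 members 6 had a positive ratio, where 47.8% of all genes did, and 4 a negative one, where 52.2% did. The median ratio of the members was 0.24 and that of all genes was -0.03. Age cannot be told apart from the hour of collection, which is not given. Of the 25 dissociation response genes 18 passed, 17 had a positive ratio and 6 were past 2-fold higher at day 30, with a median ratio of 0.69. The mitochondrial share of counts was 9.35% ± 4.94 (SD, n = 50 cells) at day 30 and 6.54% ± 3.24 (SD, n = 55 cells) at day 14. Across P30_WT IHCs the dissociation score had a rho of 0.432 with Per2, 0.364 with Nr1d1, 0.0773 with Per1 and -0.0952 with Dbp. The part of these measures in the members' ratios was not tested.

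Dbp ran from 0 through a median of 23.4 to 97.2 CPM in P30_WT IHCs. Its groups overlapped, but 40 of the 50 P30_WT IHCs lay under the P14_WT IHC median of 57.7 CPM and 14 P14_WT IHCs lay above every P30_WT IHC. Its mean level was 31.9 ± 29.1 CPM (SD, n = 50 cells) against 68.3 ± 49.1 CPM (SD, n = 55 cells), a log2 ratio of -1.08. Pooled, the level of Dbp was 32.3 CPM (exact Poisson 95% interval 31.9 to 32.7) at day 30 and 69.3 CPM (68.7 to 69.9) at day 14. The ratio was negative under all 15 alternatives and past 2-fold in 12, being -1.20 among cells of lower totals, -0.98 among cells of higher totals and -0.75 with DESeq2 size factors. With that last scaling the median ratio of all genes was 0.28, so Dbp stood 1.03 below it. Tef, its relative, ran from 0 through 54.3 to 240 CPM at day 30, with a log2 ratio of -0.19 that turned to 0.12 with DESeq2 size factors. This too was under the median of 0.28.

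Per2 had a count in 20 of 50 P30_WT IHCs (exact binomial 95% interval 26.4% to 54.8%), and in 17 of 50 after every cell was thinned to 4300000 counts, against 8 of 55 P14_WT IHCs thinned alike. Its median was 0 CPM at both ages, and its mean levels were 9.30 ± 20.3 CPM (SD, n = 50 cells) and 3.80 ± 15.9 CPM (SD, n = 55 cells). The log2 ratio of Per2, 1.10, rested on few cells: it was 0.02 among cells with at least 10 Xist counts and 3.46 among those with fewer. Per1 ran from 0 through 47.4 to 255 CPM at day 30, and 10 P30_WT IHCs lay above every P14_WT IHC. The mean of Per1 was 56.4 ± 53.8 CPM (SD, n = 50 cells) against 32.1 ± 28.6 CPM (SD, n = 55 cells), a log2 ratio of 0.79. Per3 ran from 0.318 through 104 to 299.6 CPM at day 30, with a ratio of -0.12 that turned to 0.17 with DESeq2 size factors. With that scaling it was still under the median ratio of all genes.

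Cry2 ran from 3.07 through 184 to 605 CPM in P30_WT IHCs, and 40 of the 50 cells lay above the P14_WT IHC median of 115 CPM. The mean of Cry2 was 212 ± 134 CPM (SD, n = 50 cells), a log2 ratio of 0.57 that stayed between 0.40 and 0.84 over the alternatives and was not past 2-fold. Cry1 had a median of 0 CPM at day 30 and a mean level of 6.90 CPM. Clock ran from 0 through 118 to 419.6 CPM at day 30, with a log2 ratio of 0.49. Nr1d1 ran from 1.35 through 178 to 703 CPM and Nr1d2 from 0 through 147 to 457 CPM at day 30. Their ratios were 0.16 and 0.32, and among cells of lower totals 0.72 and 0.73, turning to -0.12 and -0.05 among cells of higher totals. The groups overlapped over nearly their whole range, and 26 of 50 P30_WT IHCs lay above the P14_WT IHC median for Nr1d1.

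Among the other core clock genes, 6 passed the filter at day 30 and 1 was past 2-fold, Bhlhe40, lower at 4.73 against 22.5 CPM. Bhlhe40 passed the filter only through day 14. Over all genes passing, 12.0% were past 2-fold. Arntl had a log2 ratio of -0.17, Npas2 of 0.41, Ciart of 0.42, Rora of 0.39 and Rorb of 0.11. Hlf had mean levels of 4.21 and 3.31 CPM at the 2 ages, and Bhlhe41 and Nfil3 had a count in 17 and 3 of 50 P30_WT IHCs. No gene of the kinase and ligase list was past 2-fold among 11 passing. Of the targets and outputs, Cys1 was higher at day 30 (115 against 55.9 CPM) and Cdkn1a, a cell cycle inhibitor also on the glucocorticoid list, was lower (66.7 against 287 CPM).

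Whether the arms of the loop varied together or oppositely across cells was described by Spearman rho on log2(CPM + 1) within each group. The cells of a group share the picking and the library preparation, perhaps animals, and depth differs between them, and no test was made. A set of genes driven through E-boxes (Nr1d1, Nr1d2, Dbp, Tef, Per1, Per2 and Per3) was listed by name, not by the windows above. Cry1 and Cry2, which the pair of CLOCK and BMAL1 also drives, were kept apart from the set. Its 21 pairs had a median rho of 0.129 in P14_WT IHCs, 0.106 in P14_iOHCs and 0.0689 in P30_WT IHCs. Between all genes averaging at least 5 CPM in a group the median rho was 0.00590, 0.0337 and 0.0122 in the same groups. Per2 was kept among the member pairs though it averaged less, 3.80 CPM in P14_WT IHCs and 1.69 CPM in P14_iOHCs. Of the 21 pairs 16, 19 and 18 were positive, and 3, 3 and 1 were over 0.3. These are weak values in counts with many zeros.

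The driven genes and the activator side (Clock, Arntl and Npas2) were not mostly negative with each other in any group. The 21 pairs between them had a median rho of 0.00959 in P14_WT IHCs, 0.149 in P14_iOHCs and 0.0335 in P30_WT IHCs, and 11, 17 and 13 of them were positive. In P14_iOHCs the pairs with Npas2 rest on 4 cells with a count, 3 of them of high inner hair cell markers. The 14 pairs of driven genes with Cry1 and Cry2 had medians of -0.0504, 0.228 and 0.0696. In wild-type cells the largest values were modest: in P14_WT IHCs rho was 0.323 for Nr1d2 with Cry2, 0.322 for Per2 with Per3, 0.319 for Nr1d1 with Per1, 0.314 for Tef with Per3 and -0.341 for Nr1d1 with Cry1. In P30_WT IHCs 1 member pair was over 0.3, Nr1d2 with Per1 at 0.352. Nr1d1 with Cry2 had a rho of 0.0952 in P14_WT IHCs and 0.0771 in P30_WT IHCs. Nr1d1 with Nr1d2, the paralogues that share a role, had a rho of 0.181, 0.298 and 0.240 in the 3 groups.

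**Figure D4:**
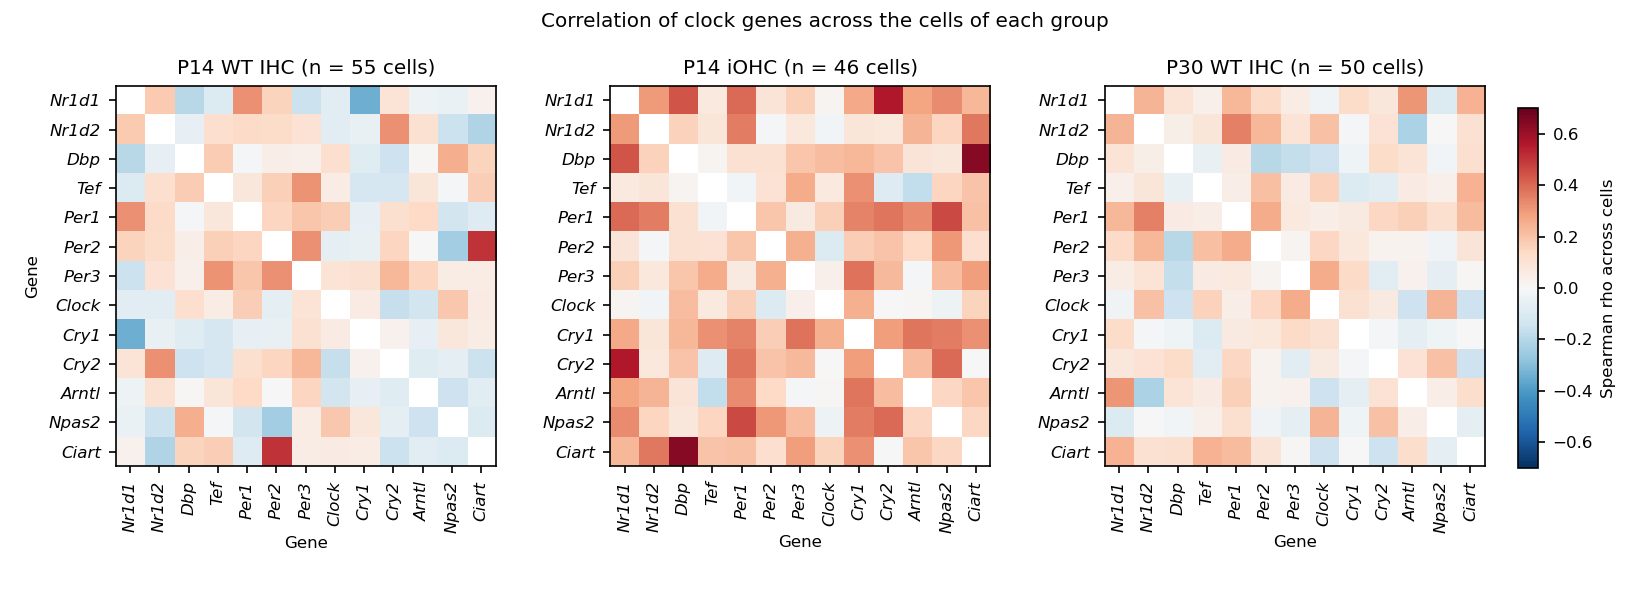
Spearman rho across cells for each pair of the 10 members and Arntl, Npas2 and Ciart, on log2(CPM + 1), in P14_WT IHCs, P14_iOHCs and P30_WT IHCs; red is positive and blue negative, and the diagonal is blank. In iOHCs 40 of 45 member pairs are positive, and no panel shows a block of negative values between the driven genes and Clock, Arntl and Npas2.

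In P14_iOHCs more member pairs were positive than in the wild-type groups, and fewer were so without the marker sets of iOHCs. All gene pairs moved the same way, with a median rho of 0.0337 in P14_iOHCs, 0.00590 in P14_WT IHCs and 0.0122 in P30_WT IHCs. The share of all gene pairs that were positive is not given here. Of all 45 member pairs, 40 were positive and 8 (17.8%) were over 0.3 in P14_iOHCs, where 5.73% of all gene pairs were. In P14_WT IHCs 4 (8.89%) were over 0.3, where 1.80% of all gene pairs were, and in P30_WT IHCs 1 (2.22%) was, where 2.47% were. The median over the 45 pairs was 0.169 in P14_iOHCs, 0.0993 without the 4 iOHCs of high inner hair cell markers, 0.116 without the 15 of high supporting cell markers and -0.0246 without both, when 19 of the 45 were positive. Nr1d1 with Cry2 had the highest rho of the member pairs, 0.558 with a Pearson r of 0.578 (n = 46 cells). It was 0.474 without both sets, and 0.444 and 0.589 among iOHCs of lower and of higher totals. Nr1d1 with Dbp had a rho of 0.438 in P14_iOHCs and 0.220 without both sets, and Nr1d1 with Per1 had 0.398 and 0.0256. Of the other clock genes, Dbp with Ciart had a rho of 0.638 in P14_iOHCs and 0.630 without both sets.

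**Figure D5:**
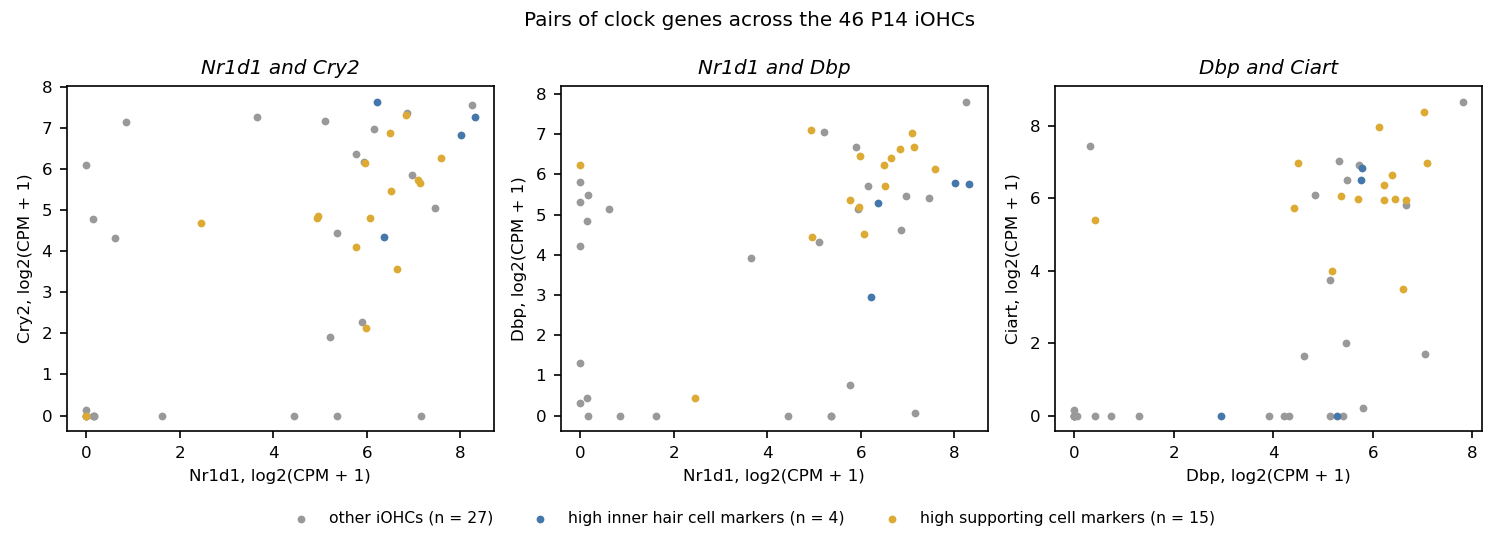
Nr1d1 with Cry2, Nr1d1 with Dbp and Dbp with Ciart across the 46 P14_iOHCs, as log2(CPM + 1) on both axes; each point is 1 cell, blue for the 4 cells of high inner hair cell markers, yellow for the 15 of high supporting cell markers and grey for the other 27. Many cells are high for both genes of a panel (rho 0.558, 0.438 and 0.638), and others are at or near 0 for 1 gene and high for the other.

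Other measures of the cell correlated with the members in iOHCs. The number of genes with a count had a median rho of 0.328 with the 10 members in P14_iOHCs, positive for 9, and of -0.121 in P14_WT IHCs. The dissociation score had a median rho of 0.398 in P14_iOHCs and -0.115 in P14_WT IHCs. The outer hair cell score was negative with all 10 members in P14_iOHCs, with a median of -0.263. Nr1d1 had a rho of 0.561 with the number of genes, 0.523 with the dissociation score and -0.553 with the outer hair cell score in P14_iOHCs (n = 46 cells). Dbp had a rho of 0.546 with the supporting cell score. The part of these measures in the shared variation of the members was not tested.

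The genes whose pattern was most like Nr1d1 or Dbp were named by the highest rho across the cells of a group. For Nr1d1 in P14_WT IHCs these were Canx (0.571), Cct4, Tmem33, Romo1 and Prr13. In P14_iOHCs they were Glud1 (0.638), Hnrnpa2b1, Junb, Atrn and Btg2, and in P30_WT IHCs Btg2 (0.499), Jun, Tm2d2, Vta1 and Ppp1r10. For Dbp they were Arhgdia (0.517), Meak7, Wbp1, Orai2 and Rell1 in P14_WT IHCs, then Rcn2 (0.681), Rnd1, Sparc, Tmem117 and Pde6d in P14_iOHCs, and Drap1 (0.495), Impact, Skil and Brd8 in P30_WT IHCs. They were among the 5 highest by rho of the 4166 to 4828 genes ranked in a group, over 55, 46 or 50 cells.

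Some members share bases with a neighbour on the other strand, and whether reads were counted by strand is not given in the sources used here. In the GENCODE M21 annotation of GRCm38, Nr1d1 (chr11:98767932-98775333, minus strand) shares 8.55% of its exon bases with Thra, and Dbp (chr7:45705088-45710203, plus strand) shares 18.01% with Sphk2. Cry2 (chr2:92403646-92434043, minus strand) shares 4.67% with D930015M05Rik. Thra, the thyroid hormone receptor gene, had mean levels of 33 CPM in P14_WT IHCs, 36.7 CPM in P14_iOHCs and 39.2 CPM in P30_WT IHCs, log2 ratios of 0.15 and 0.24 against P14_WT IHCs. Levels of Sphk2, with the largest of these overlaps, and of D930015M05Rik are not given here. The part of shared bases in the members' ratios was not tested.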

How the data were processed

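Single-cell Smart-Seq HT libraries were sequenced paired-end, and the authors deposited raw counts per gene and cell. The submitters' processing notes name FastQC 0.11.9, Trimmomatic 0.39, HISAT2 2.1.0, StringTie 1.3.5, HTSeq 0.10.0 and mm10; the annotation release and the counting strand are not given in the sources used here. Cells were grouped by their titles, and all 151 were used. Counts were divided by the total of the cell (CPM). Group means were compared as log2 ratios with a pseudocount of 1 CPM, for genes averaging at least 5 CPM over both groups. With 1 sample per group no test was run. TPM used exon lengths of GENCODE M21 (53292 of 55291 genes). The size factors of edgeR 4.0.16 (TMM) and DESeq2 1.42.0 served as alternative scalings, run in R 4.3.3; the rest used Python 3.11.15, pandas 2.3.3, numpy 2.4.6, scipy 1.17.1 and matplotlib 3.10.9. Scripts were tested on simulated data. All members were named, with listed genes past 2-fold and at 20 CPM or more in the higher group, 9 further core clock genes in any case, and the 5 genes most like Nr1d1 and Dbp, of which 1 is not reported here. The members and lists were chosen with earlier results of these data known. Alternatives leaving out iOHCs by their markers were chosen after seeing the data. Groups of over 10 cells were not screened for outlying values.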

Additional observations from a re-analysis of the deposited data

How the results depend on the processing

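The number of members past 2-fold depended on the summary, and the share of all genes past it, given in parentheses, moved too. Between P14_iOHCs and P14_WT IHCs it was 2 (24.1%). It was 6 with the mean of log2(CPM + 1) (28.8%) and among cells of lower totals (37.4%), 4 among cells with at least 10 Xist counts (30.05%), 0 at a threshold of 4-fold (9.11%) and 5 at 1.5-fold (43.65%). By sets chosen after seeing the data it was 4 without the iOHCs of high inner hair cell markers (25.75%), 4 without those of high supporting cell markers (23.8%) and 5 without both (26.25%). Between P30_WT IHCs and P14_WT IHCs it was 2 (12.0%). It was 1 with median CPM (25.01%), without the highest cell of each group (12.5%), with the mean of log2(CPM + 1) (17.9%), among cells of lower totals (25.2%), among cells with at least 10 Xist counts (17.6%) and with a filter of 20 CPM (6.99%). It was 0 with a pseudocount of 10 CPM (3.68%), among cells of higher totals (16.99%) and at 4-fold (1.87%), and 4 at 1.5-fold (30.8%). The median rho of the E-box-driven pairs in P14_iOHCs, 0.106, was 0.252 among cells with at least 10 Xist counts and -0.0483 without both sets. The cause was not tested. Scaling by DESeq2 size factors moved the median ratio of all genes from 0.06 to 0.21 for iOHCs and from -0.03 to 0.28 at day 30. Thinning every cell to 4300000 counts left a Per2 count in 8 of 9, 6 of 7 and 17 of 20 cells of P14_WT IHCs, P14_iOHCs and P30_WT IHCs. No paired analysis was possible because the numbers in the labels name single cells, groups are of different sizes and the results come from no test.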
